A study of Mus musculus with 6 samples.

Results

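The genes described here are 55 genes of DNA replication and mitosis, 31 that copy DNA or prepare its copying and 24 that carry cells through mitosis. They were taken by symbol from a deposited expression table of 55951 genes, and each symbol matched 1 row. RNA came from spleen cells of C57BL/6 mice with ovalbumin-induced asthma, sorted and labelled as CD8+ effector-memory T cells; several marker levels, given below, go against that label, above all in the S100A4-positive libraries. The mice carry an S100A4-EGFP reporter, so that green fluorescence reports S100A4, a protein that binds calcium. All sorted cells passed a gate for CD3, CD8 and CD44 without CD4 and CD62L, the surface pattern of effector-memory cells. The S100A4-positive group is the EGFP-positive part of that gate and the S100A4-negative group the EGFP-negative part, with 3 libraries each and no further treatment. Whether the 3 libraries of a group stem from different mice is not in the labels, and p-values therefore cover only the spread among these libraries, which may be technical. Levels are FPKM (fragments per kilobase of transcript, scaled to the depth of the library) as deposited. A log2 difference is that of log2(FPKM + 1), S100A4-positive minus S100A4-negative, and it is compressed for low genes. A gene is said to have risen or fallen only where limma, fitted to the 13241 genes whose FPKM averaged 1 or more, gave an adjusted p under 0.05. All 55 genes passed that filter.

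As background, a cell commits to division when cyclin D and cyclin E kinases free the E2F transcription factors, which then switch on the genes of DNA synthesis. Mcm2 to Mcm7 form the ring that unwinds DNA, loaded by Cdc6 and Cdt1 and activated by Cdc45 and the GINS complex. Mitotic genes come on later through the B-Myb, MuvB and FoxM1 proteins, and memory T cells at rest keep both programmes low until antigen recalls them.

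The libraries held 14925260 to 18660188 reads, recovered as whole reads from the deposited values, and every one of the 55 genes had at least 27 reads in every library. The levels of gate and cell type markers went partly against the labels. S100a4 itself, whose reporter sorted the cells, was at 1.27, 4.02 and 1.52 FPKM in S100A4-positive and at 0, 0.405 and 0.129 FPKM in S100A4-negative libraries. Cd4, which the gate excludes, was at 42.5, 52.4 and 66.6 FPKM in S100A4-positive and at 67.2, 337 and 111 FPKM in S100A4-negative libraries, and it stood above Cd8a (13.6, 22.4 and 31.9 against 187, 85.2 and 139 FPKM) in all 3 S100A4-positive libraries and in S100A4-negative replicate 2. T cell markers (10 of 10 lower) summed to 301 to 429 FPKM in S100A4-positive and 1920 to 2257 FPKM in S100A4-negative libraries, none of them at 0. Monocyte and macrophage markers (11 of 12 higher) summed to 5618 to 6300 FPKM in S100A4-positive and 423 to 577 FPKM in S100A4-negative libraries, with Vsig4 at 0 in 5 of the 6 libraries. B cell markers (6 of 6 lower, 3 after median-of-ratios rescaling) summed to 240.4 to 397 FPKM in S100A4-positive and 474 to 1314 FPKM in S100A4-negative libraries. Plasma cell markers (7 lower and 1 higher of 8) summed to 359.9 to 653 against 1332 to 2793 FPKM, and neutrophil and precursor markers (10 of 12 lower) to 416 to 1721 against 3321 to 4878 FPKM, in the same order of groups. After median-of-ratios rescaling 5 plasma cell markers were lower and 1 higher, and 9 neutrophil and precursor markers were lower. Dendritic cell markers rose in 6 of 7, and in 3 to 6 of 7 when 1 library was left out. Of 5 germinal-centre B cell markers 1 rose and 2 fell. Of 5 stem and progenitor markers 2 were tested, and 1 rose and 1 fell. For all these counts, 43.4% of all tested genes were called lower and 19.0% higher, and the germinal-centre shares lay near these. After median-of-ratios rescaling these shares of all tested genes were 24.3% and 27.7%. Of 11 erythroid precursor markers 8 were tested and 0 were called by limma, 0 at an unadjusted p under 0.05 and 0 by limma's voom. In bulk libraries such as these, fewer cells of a type and less RNA per cell cannot be told apart, and the part of other cell types in the results below was not tested.

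Replication and mitosis genes were lower together in S100A4-positive libraries. Of the 55 genes, 47 fell, 0 rose and 8 did not pass. Thus 85.5% fell where 43.4% of all tested genes did, and 0 rose where 19.0% of all tested genes did. At an unadjusted p under 0.05 limma also put 0 of the 55 higher. Among the genes that fell were Mcm6, a subunit of the replicative helicase, Ccne1, the cyclin that drives entry into DNA synthesis, Cdc25b, a phosphatase that starts mitosis, and Top2a, which untangles chromosomes. Mcm6 averaged 30.2 ± 5.20 FPKM in S100A4-positive libraries and 118 ± 5.23 FPKM in S100A4-negative libraries, and Top2a 26.1 ± 5.996 FPKM in S100A4-positive libraries and 78.4 ± 22.03 FPKM in S100A4-negative libraries (SD, n = 3 each, here and below). The median log2 difference of the 55 genes was -1.15, against -0.36 over all tested genes. All 3 S100A4-positive libraries lay below all 3 S100A4-negative ones for 48 of the 55 genes, and this held for 49.1% of all tested genes. The authors' deposited table, whose test is not named, called 31 of the 55 lower and 0 higher. It called 13.8% of the 13241 genes lower and 19.8% higher. The count depends on how libraries are scaled. Rescaling FPKM by the median of ratios moved the median log2 difference of all genes by 0.34 to -0.019, and 40 of the 55 genes then fell and 1 rose, with 24.3% of all genes called lower and 27.7% higher. Cdt1, Gins2, Rfc4, Rfc5, Ube2c, Kif23 and Tpx2 were the genes that then lost their call, under both this scaling and voom with the authors' size factors, and the gene that rose was E2f2. Quantile normalization gave 44 lower and 1 higher, against 31.6% and 22.9% of all genes. Limma's voom on the recovered reads with the authors' size factors also gave 40 lower and 1 higher, against 23.8% and 28.1% of all genes.

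**Figure D1:**
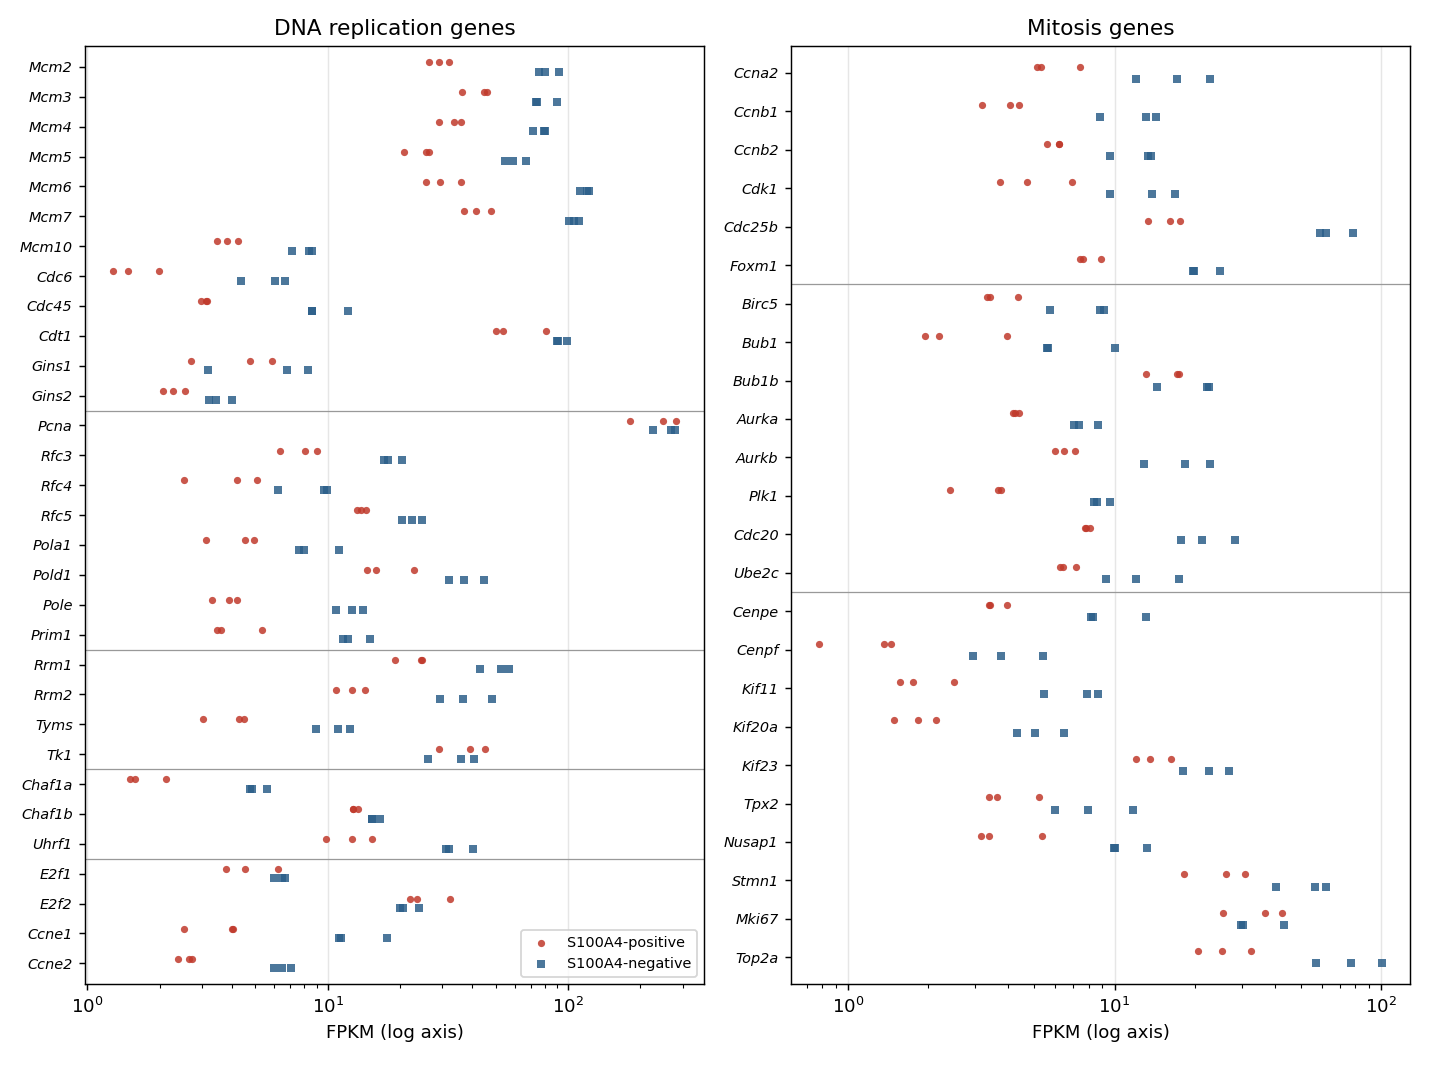
FPKM of each replication gene (left) and mitosis gene (right) in each library on a log axis, with circles for the 3 S100A4-positive and squares for the 3 S100A4-negative libraries; grey lines divide the roles. For 48 of 55 genes every S100A4-positive library lies to the left of every S100A4-negative one, and Pcna, Tk1, E2f2 and Mki67 are among those that overlap.

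Replication and mitosis genes had similar median falls. The call was made for 25 of the 31 replication genes, whose median log2 difference was -1.13, with single values from -1.95 to 0.25. It was made for 22 of the 24 mitosis genes, whose median was -1.20, with values from -2.01 to 0.0091. The median of the mitosis genes was thus lower by 0.065. Without S100A4-negative replicate 3 the order turned, with -1.01 for mitosis and -1.05 for replication genes. The difference of medians, mitosis minus replication, was -0.18 with a pseudocount of 0.1, -0.14 after median-of-ratios rescaling and -0.054 after quantile normalization. It was -0.19 under voom with library totals, -0.20 under voom with the authors' size factors and -0.015 with array weights. The levels differed more than the falls. Replication genes averaged 3.46, 3.54 and 3.70 log2(FPKM + 1) units in S100A4-positive replicates 1, 2 and 3 and 4.40, 4.52 and 4.73 in S100A4-negative replicates 1, 2 and 3. Mitosis genes averaged 2.77, 2.76 and 3.06 units in the same S100A4-positive libraries and 3.67, 3.97 and 4.25 in the S100A4-negative ones. In every library the mitosis genes lay below the replication genes, by 0.64 to 0.79 units in S100A4-positive and 0.48 to 0.73 units in S100A4-negative libraries, and these ranges overlap.

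Promoters of these genes were compared because the E2F and MuvB programmes read different short elements. RefSeq promoter windows of build GRCm38.p6, from 250 bases before to 50 bases after a start site, were at hand for 44 of the 55 genes, in 47 windows since 3 genes had 2. Windows were searched on both strands for 3 kinds of word. The E2F element was taken as TTCCCGC and the spelling TTCGCGC, and also as TTGCCGC and the spelling TTGGCGC. The cell cycle genes homology region, or CHR, was taken as TTTGAA and also as the palindrome TTTAAA. The NF-Y box was taken as CCAAT. An E2F match stood in 65.5% of 29 replication windows and 16.7% of 18 mitosis windows, beside 16.4% of 11914 windows of tested genes and 9.57% of all 32851 windows. A CHR match stood in 27.6% of replication and 83.3% of mitosis windows, beside 19.8% of windows of tested genes and 27.6% of all windows. For CCAAT these shares were 65.5%, 88.9%, 37.5% and 37.4%. Matches of short words can fall by chance and can overlap: among the 144 matches in these windows, 11 pairs overlapped. The shares describe letters in a window and carry no test. In 39 windows of genes that fell and 8 windows of genes that did not pass, the shares were 48.7% and 37.5% for E2F, 48.7% and 50% for CHR and 76.9% and 62.5% for CCAAT.

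**Figure D2:**
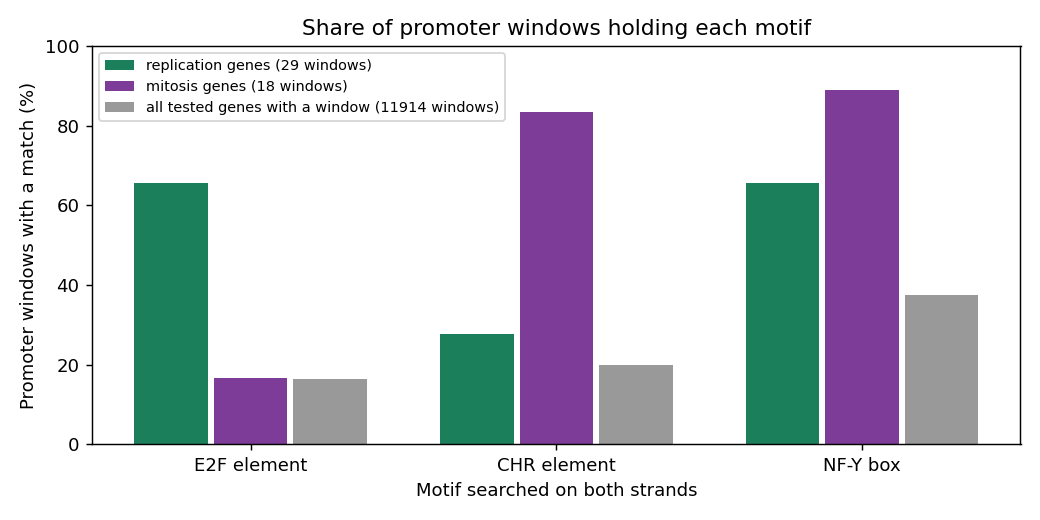
Percent of promoter windows that hold an E2F element, a CHR element or an NF-Y box, for 29 windows of replication genes, 18 of mitosis genes and 11914 of all tested genes. E2F matches are more frequent in replication windows (65.5%) and CHR matches in mitosis windows (83.3%).

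The windows of the genes with the largest falls, a pair from each programme among genes with a window, are given first, followed by Pcna and Mki67, widely used proliferation genes whose levels overlapped between the groups. The sequences are RefSeq's, build GRCm38.p6, on the strand of the gene, 5′ to 3′, with E2F, CHR and CCAAT matches on either strand in capitals.
Mcm6, chr1:128359656-128359955, - strand: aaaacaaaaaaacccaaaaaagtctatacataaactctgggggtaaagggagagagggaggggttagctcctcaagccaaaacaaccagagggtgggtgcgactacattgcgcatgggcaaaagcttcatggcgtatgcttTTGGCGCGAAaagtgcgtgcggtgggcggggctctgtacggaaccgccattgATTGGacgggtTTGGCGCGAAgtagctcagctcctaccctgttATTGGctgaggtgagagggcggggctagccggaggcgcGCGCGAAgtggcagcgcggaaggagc
Ccne1, chr7:38107441-38107740, - strand: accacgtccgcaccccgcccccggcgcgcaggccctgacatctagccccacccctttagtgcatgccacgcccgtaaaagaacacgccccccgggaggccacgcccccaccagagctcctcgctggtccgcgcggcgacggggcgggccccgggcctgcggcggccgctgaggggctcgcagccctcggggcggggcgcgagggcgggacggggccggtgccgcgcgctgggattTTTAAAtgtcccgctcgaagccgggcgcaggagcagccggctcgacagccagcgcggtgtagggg
Cdc25b, chr2:131186698-131186997, + strand: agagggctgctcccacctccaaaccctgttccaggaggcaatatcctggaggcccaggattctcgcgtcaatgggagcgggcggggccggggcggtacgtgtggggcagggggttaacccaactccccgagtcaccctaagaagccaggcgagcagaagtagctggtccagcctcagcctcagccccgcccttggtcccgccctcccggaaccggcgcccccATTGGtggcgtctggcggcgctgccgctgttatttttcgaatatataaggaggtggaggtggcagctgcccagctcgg
Top2a, chr11:99024140-99024439, - strand: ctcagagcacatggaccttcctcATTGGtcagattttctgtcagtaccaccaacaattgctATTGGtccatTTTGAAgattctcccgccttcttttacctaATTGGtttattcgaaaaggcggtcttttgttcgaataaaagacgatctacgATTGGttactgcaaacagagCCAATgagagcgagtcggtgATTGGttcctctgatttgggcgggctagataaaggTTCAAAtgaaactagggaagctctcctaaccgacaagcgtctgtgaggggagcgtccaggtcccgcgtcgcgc
Pcna, chr2:132253131-132253430, - strand: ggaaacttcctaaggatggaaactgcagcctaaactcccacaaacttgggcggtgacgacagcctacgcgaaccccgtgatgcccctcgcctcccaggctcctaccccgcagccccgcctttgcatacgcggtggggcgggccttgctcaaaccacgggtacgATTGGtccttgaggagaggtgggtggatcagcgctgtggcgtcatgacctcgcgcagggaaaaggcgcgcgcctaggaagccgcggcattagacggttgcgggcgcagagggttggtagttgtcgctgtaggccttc
Mki67, chr7:135716330-135716629, - strand: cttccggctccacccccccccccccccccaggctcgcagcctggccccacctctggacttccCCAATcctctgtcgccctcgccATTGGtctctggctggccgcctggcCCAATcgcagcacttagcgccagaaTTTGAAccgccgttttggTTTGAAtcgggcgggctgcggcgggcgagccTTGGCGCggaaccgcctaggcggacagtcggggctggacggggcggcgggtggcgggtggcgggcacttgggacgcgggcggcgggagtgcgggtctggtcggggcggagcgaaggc
Mcm6 has 5 E2F matches counted from the start site, an overlapping pair on opposite strands from base -109, another such pair from base -46, and 1 at base 25. Ccne1 holds a CHR word at base -15 and none of the 4 E2F words, which says only that these letters are not in this window. Top2a has 2 CHR and 6 CCAAT matches, and Cdc25b a single CCAAT match at base -28. Pcna holds only a CCAAT match, at base -87, which likewise speaks only for the letters of this window. The annotated 5′ end of Pcna, at base 132253314 of the chromosome, lies inside the window, upstream of the start site used. Mki67 holds all 3 kinds, with CHR matches at -116 and -98 and an E2F match at -67.

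Of the helicase genes and their loading factors 11 of 12 fell, with a median log2 difference of -1.24. Mcm6 (ENSMUSG00000026355, chromosome 1, 128331590 to 128359664, - strand) was read at 25.6, 29.3 and 35.9 FPKM in S100A4-positive libraries, against 112, 122 and 120.4 FPKM in S100A4-negative libraries, a log2 difference of -1.95 (SE 0.14, limma adjusted p = 6.34e-05). The groups were far apart, and S100A4-positive replicate 3 was the closest to the S100A4-negative libraries. Mcm7 had 37.1, 41.4 and 47.9 FPKM in S100A4-positive libraries, against 106, 102 and 112 FPKM in S100A4-negative libraries, and it fell by 1.32 log2 units. For the other ring subunits the group means were 29.2 ± 2.81 FPKM in S100A4-positive libraries and 82.5 ± 8.46 FPKM in S100A4-negative libraries for Mcm2, and 42.4 ± 5.44 FPKM in S100A4-positive libraries and 79.5 ± 9.34 FPKM in S100A4-negative libraries for Mcm3. Mcm4 averaged 32.9 ± 3.46 FPKM in S100A4-positive libraries and 77.1 ± 4.79 FPKM in S100A4-negative libraries, and Mcm5 24.3 ± 3.02 FPKM in S100A4-positive libraries and 60.4 ± 6.12 FPKM in S100A4-negative libraries. By mean level Mcm6 and Mcm7 stood above the other 4 subunits in S100A4-negative libraries. In S100A4-positive libraries Mcm3 and Mcm7 had the highest means, 42.4 and 42.1 FPKM, and did not differ beyond their spread, and neither did Mcm4, Mcm6 and Mcm2.

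Loading and activation factors were lower as well. Cdc6, the loader of the helicase, averaged 1.58 ± 0.364 FPKM in S100A4-positive libraries and 5.70 ± 1.20 FPKM in S100A4-negative libraries, a log2 difference of -1.37 (SE 0.20, limma adjusted p = 0.00100). Cdc45, which joins the helicase to make it active, had 3.08 ± 0.0989 FPKM in S100A4-positive libraries and 9.79 ± 2.05 FPKM in S100A4-negative libraries and fell by 1.39 log2 units, and Mcm10, an initiation factor, fell by 0.90 log2 units. Cdt1, the partner of Cdc6 that is held back by geminin, was at 80.95, 53.7 and 50.04 FPKM in S100A4-positive libraries, against 90.1, 90.7 and 99.5 FPKM in S100A4-negative libraries. Its log2 difference of -0.63 (SE 0.19, limma adjusted p = 0.0215) was small, and it lost its call without S100A4-negative replicate 2 or 3 or S100A4-positive replicate 2 or 3 (limma adjusted p = 0.0503, 0.0687, 0.0716 and 0.0723) and after median-of-ratios rescaling (0.289). S100A4-positive replicate 1 was the closest to the S100A4-negative libraries. Of the GINS subunits, Gins1 overlapped between the groups, with a log2 difference of -0.35 with a 95% interval from -1.17 to 0.47 (limma adjusted p = 0.403). Gins2 fell by 0.46 log2 units but lost its call in each of the 6 fits without a library (limma adjusted p from 0.0526 to 0.112), and 67.3% of its exon bases are shared with Gse1 on the opposite strand. Since the counting of strand is not stated, reads of such pairs cannot be told apart. Of the shares not given beside their gene, the largest were 17.4% for Ccne2, 12.7% for Rfc4, 12.6% for Mcm7, 12.5% for Ccna2 and 10.7% for Rfc5.

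Among the polymerases and the sliding clamp 7 of 8 genes fell, and the exception was the most abundant of all 55. Pcna (ENSMUSG00000027342, chromosome 2, 132249162 to 132253314, - strand), the clamp that holds polymerases on DNA and also serves repair, had 182, 283 and 248 FPKM in S100A4-positive libraries, against 225, 267 and 280.0 FPKM in S100A4-negative libraries. The groups overlapped, with S100A4-positive replicate 2 the highest of the 6, and the log2 difference was -0.13 with a 95% interval from -0.57 to 0.30 (limma adjusted p = 0.545). Its sign turned to 0.25 after median-of-ratios rescaling and to 0.045 without S100A4-positive replicate 1. Pole, the catalytic subunit of the leading-strand polymerase, was at 3.30, 3.89 and 4.19 FPKM in S100A4-positive libraries, against 12.7, 10.9 and 14.1 FPKM in S100A4-negative libraries, a log2 difference of -1.50 (SE 0.15, limma adjusted p = 2.45e-04). Pold1, its counterpart on the lagging strand, had 14.6, 15.9 and 22.8 FPKM in S100A4-positive libraries, against 32.1, 36.8 and 44.9 FPKM in S100A4-negative libraries, and fell by 1.06 log2 units. The S100A4-positive libraries lay below all S100A4-negative ones for both polymerases. Rfc5, a subunit of the clamp loader, had 14.4, 13.3 and 13.8 FPKM in S100A4-positive libraries, against 20.4, 22.4 and 24.6 FPKM in S100A4-negative libraries. It fell by 0.66 log2 units, and the call was lost after median-of-ratios rescaling (limma adjusted p = 0.0524). Rfc3 and Rfc4, of the same loader, fell by 1.15 and 0.98 log2 units, and Pola1 and Prim1, which lay down the primers, by 0.93 and 1.45.

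Enzymes that supply deoxynucleotides divided in the same way, with 3 of 4 lower. Ribonucleotide reductase makes deoxynucleotides from ribonucleotides. Its large subunit gene Rrm1 had 19.002, 24.7 and 24.5 FPKM in S100A4-positive libraries, against 43.3, 52.8 and 57.2 FPKM in S100A4-negative libraries. Its small subunit gene Rrm2 (ENSMUSG00000020649, chromosome 12, 24708241 to 24714146, + strand) had 10.8, 12.6 and 14.3 FPKM in S100A4-positive libraries, against 29.3, 36.7 and 48.3 FPKM in S100A4-negative libraries, a log2 difference of -1.51 (SE 0.20, limma adjusted p = 6.70e-04). Both genes had every S100A4-positive library below every S100A4-negative one. Tyms, which makes thymidylate, fell by 1.26 log2 units. Tk1, the thymidine kinase of the salvage route (ENSMUSG00000025574, chromosome 11, 117815526 to 117826092, - strand), was at 29.1, 39.1 and 45.02 FPKM in S100A4-positive libraries, against 26.2, 35.8 and 40.8 FPKM in S100A4-negative libraries. The ranges overlapped almost fully, and the log2 difference was 0.14 with a 95% interval from -0.36 to 0.64 (limma adjusted p = 0.597); it was -0.041 without S100A4-negative replicate 1.

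Of the chromatin replication genes, Uhrf1, which guides DNA methylation to new strands, had 9.90, 12.7 and 15.3 FPKM in S100A4-positive libraries, against 31.99, 31.2 and 40.1 FPKM in S100A4-negative libraries, and fell by 1.39 log2 units. The chromatin assembly factor subunits Chaf1a and Chaf1b, which place histones behind the fork, were both lower in every S100A4-positive library, and Chaf1a passed the test; the difference between them was not tested. Chaf1a had 1.59, 1.51 and 2.13 FPKM in S100A4-positive libraries, against 4.75, 4.84 and 5.62 FPKM in S100A4-negative libraries, a fall of 1.15 log2 units, with 52.5% of its exon bases shared with Ubxn6 on the other strand. Chaf1b had 12.8, 12.7 and 13.4 FPKM in S100A4-positive libraries, against 16.6, 15.3 and 15.3 FPKM in S100A4-negative libraries. Its log2 difference of -0.26 with a 95% interval from -0.52 to 0.0085 (limma adjusted p = 0.0822) did not pass, and it was 0.10 after median-of-ratios rescaling and 0.020 after quantile normalization.

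Of the regulators of entry into DNA synthesis, Ccne1 and Ccne2 fell, while E2f1 and E2f2 did not pass. The difference between the cyclin and E2F genes was not tested. Ccne1 (ENSMUSG00000002068, chromosome 7, 38097984 to 38107534, - strand) was read at 3.998, 2.54 and 4.04 FPKM in S100A4-positive libraries, against 11.4, 11.2 and 17.7 FPKM in S100A4-negative libraries, a log2 difference of -1.66 (SE 0.23, limma adjusted p = 8.17e-04), and Ccne2, the other cyclin E gene, fell by 1.06 log2 units. E2f1 had 4.54, 3.78 and 6.24 FPKM in S100A4-positive libraries, against 6.48, 5.97 and 6.64 FPKM in S100A4-negative libraries. Its S100A4-positive replicate 3 lay inside the S100A4-negative range, and the log2 difference of -0.35 with a 95% interval from -0.78 to 0.077 (limma adjusted p = 0.129) passed only without that library (-0.52, limma adjusted p = 0.0423). E2f2 had 32.4, 22.1 and 23.7 FPKM in S100A4-positive libraries, against 19.9, 20.6 and 23.98 FPKM in S100A4-negative libraries. Its S100A4-positive replicate 1 was the highest of the 6, and the log2 difference was 0.25 with a 95% interval from -0.14 to 0.64 (limma adjusted p = 0.225). E2f2 is the gene called higher after rescaling, with 0.62 under the median of ratios, 0.46 under quantile normalization and 0.65 under voom with the authors' size factors (limma adjusted p = 0.0119, 0.0258 and 0.00955).

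**Figure D3:**
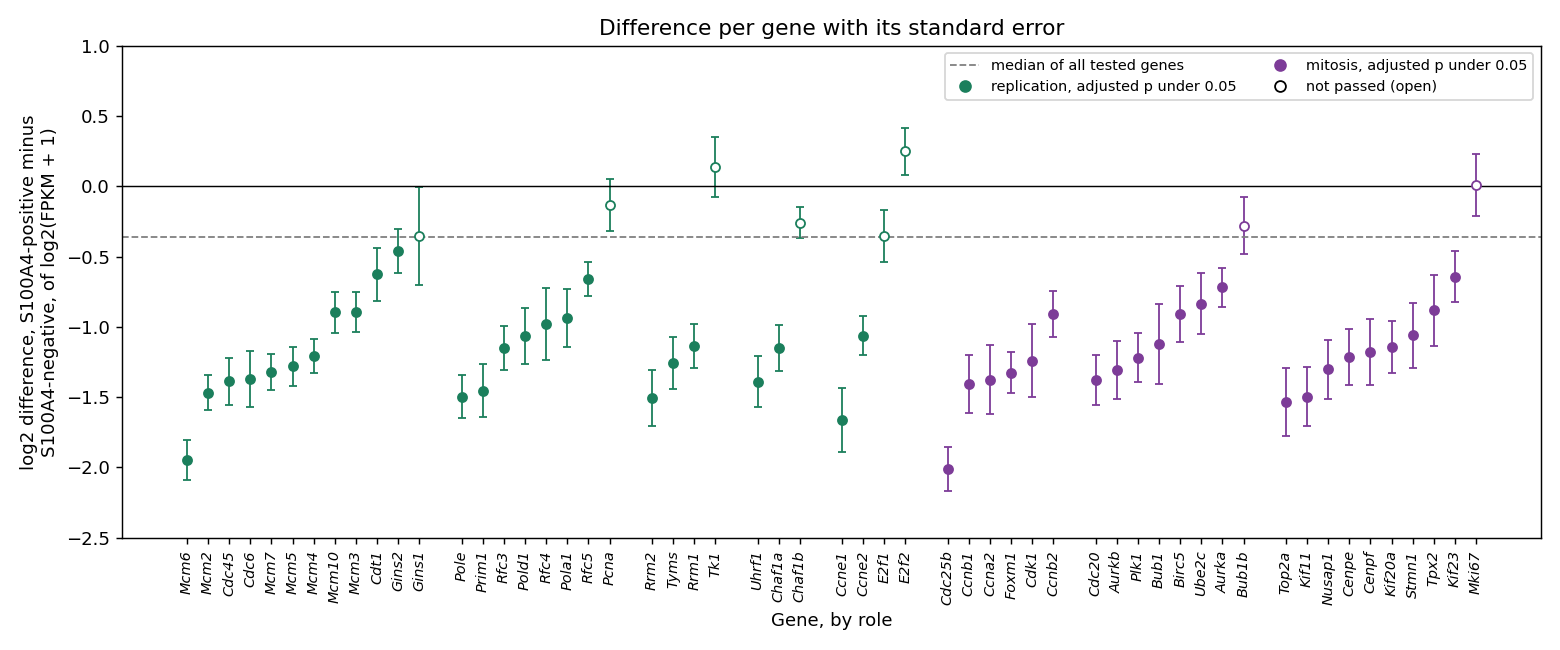
Difference of each gene (S100A4-positive minus S100A4-negative, log2 of FPKM + 1) with its standard error, by role, with filled symbols for an adjusted p under 0.05 and open symbols for genes that did not pass. The dashed line is the median of all tested genes (-0.36), and the open symbols are Gins1, Pcna, Tk1, Chaf1b, E2f1, E2f2, Bub1b and Mki67.

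Cyclins and regulators of mitotic entry fell in 6 of 6, with a median log2 difference of -1.35. Cdc25b (ENSMUSG00000027330, chromosome 2, 131186949 to 131198497, + strand), the phosphatase that switches on mitotic kinase, had 16.2, 13.3 and 17.6 FPKM in S100A4-positive libraries, against 58.8, 78.1 and 62.3 FPKM in S100A4-negative libraries. Its log2 difference of -2.01 (SE 0.16, limma adjusted p = 8.23e-05) was the largest fall of the 55 genes. Ccna2, the cyclin of S and G2 phase, had 5.11, 5.32 and 7.39 FPKM in S100A4-positive libraries, against 12.03, 17.2 and 22.8 FPKM in S100A4-negative libraries, and fell by 1.37 log2 units. Foxm1, a transcription factor of mitotic genes, had 7.40, 7.59 and 8.88 FPKM in S100A4-positive libraries, against 19.7, 19.9 and 24.9 FPKM in S100A4-negative libraries, and fell by 1.32 log2 units. None of these genes overlapped between the groups. Cdk1, the kinase of mitosis, averaged 5.12 ± 1.64 FPKM in S100A4-positive libraries and 13.4 ± 3.63 FPKM in S100A4-negative libraries, and its partners Ccnb1 and Ccnb2 fell by 1.40 and 0.91 log2 units.

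Mitotic kinases, checkpoint proteins and the machinery of mitotic exit fell in 7 of 8. Cdc20, which directs the anaphase-promoting complex, had 7.85, 7.74 and 8.11 FPKM in S100A4-positive libraries, against 17.8, 21.3 and 28.4 FPKM in S100A4-negative libraries, a log2 difference of -1.38 (SE 0.18, limma adjusted p = 6.22e-04). The S100A4-positive libraries lay close together, and S100A4-negative replicate 3 was the highest. Aurkb, the kinase that corrects chromosome attachment, had 6.44, 5.98 and 7.14 FPKM in S100A4-positive libraries, against 12.9, 18.4 and 22.7 FPKM in S100A4-negative libraries, and fell by 1.31 log2 units. Its relative Aurka fell by 0.72 log2 units, Plk1, a kinase of spindle formation, by 1.22, and Birc5, the survivin subunit that places Aurkb, by 0.91. Ube2c, the conjugating enzyme of mitotic exit, fell by 0.83 log2 units, shared 22.8% of its exon bases with Tnnc2 and lost its call after median-of-ratios rescaling (limma adjusted p = 0.0730). The checkpoint kinase gene Bub1 fell by 1.12 log2 units. Bub1b, its relative BubR1, had 17.1, 13.1 and 17.4 FPKM in S100A4-positive libraries, against 14.4, 22.2 and 22.6 FPKM in S100A4-negative libraries. S100A4-negative replicate 1 lay within the S100A4-positive range, and the log2 difference of -0.28 with a 95% interval from -0.76 to 0.20 (limma adjusted p = 0.261) passed only without that library (-0.48, limma adjusted p = 0.0490). After median-of-ratios rescaling it was 0.087.

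Of the kinetochore, spindle and chromosome genes 9 of 10 fell. Top2a (ENSMUSG00000020914, chromosome 11, 98992943 to 99024189, - strand) was read at 20.5, 25.4 and 32.5 FPKM in S100A4-positive libraries, against 57.03, 77.03 and 101 FPKM in S100A4-negative libraries, a log2 difference of -1.53 (SE 0.24, limma adjusted p = 0.00140). Stmn1, which destabilises microtubules, had 18.2, 26.1 and 30.9 FPKM in S100A4-positive libraries, against 40.3, 56.6 and 62.1 FPKM in S100A4-negative libraries, and fell by 1.06 log2 units. Kif11, the motor that separates spindle poles, averaged 1.94 ± 0.488 FPKM in S100A4-positive libraries and 7.35 ± 1.69 FPKM in S100A4-negative libraries and fell by 1.50 log2 units. Nusap1, Cenpe, Cenpf and Kif20a, which act at the spindle, kinetochore and midzone, fell by 1.30, 1.22, 1.18 and 1.14 log2 units; 29.3% of the exon bases of Kif20a are shared with Cdc23. Tpx2 and Kif23 fell by 0.88 and 0.64 log2 units. Both lost their calls without S100A4-negative replicate 3 (limma adjusted p = 0.0518 and 0.0584) or S100A4-positive replicate 2 (0.0606 and 0.0545). Mki67 (ENSMUSG00000031004, chromosome 7, 135689784 to 135716361, - strand), the source of the Ki-67 antigen that coats mitotic chromosomes, was at 25.6, 42.4 and 36.6 FPKM in S100A4-positive libraries, against 30.3, 29.9 and 43.04 FPKM in S100A4-negative libraries. Its libraries were interleaved, with the highest value in S100A4-negative replicate 3 and the lowest in S100A4-positive replicate 1. The log2 difference was 0.0091 with a 95% interval from -0.51 to 0.53 (limma adjusted p = 0.974). An interval that reaches to both sides of 0 does not show equal levels.

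The libraries of a group also differed among themselves. In the S100A4-negative group 22 of 24 mitosis genes and 28 of 31 replication genes were highest in replicate 3, as were 44.8% of all tested genes. The lowest library was replicate 1 for 22 mitosis and 21 replication genes and for 40.6% of all tested genes. The spread of mitosis genes was wide there, with a median SD of 0.33 log2 units, against 0.16 for replication genes and 0.17 for all tested genes. In the S100A4-positive group the medians were 0.21, 0.21 and 0.20, and 22 mitosis and 21 replication genes were highest in replicate 3, as were 35.3% of all tested genes. Summed B cell and dendritic cell markers were also highest in replicate 3 of each group. B cell markers had 240.4, 275 and 397 FPKM in S100A4-positive replicates 1, 2 and 3 and 474, 884 and 1314 FPKM in S100A4-negative replicates 1, 2 and 3. Dendritic cell markers had 354, 373 and 490.01 FPKM in the S100A4-positive and 51.3, 47.3 and 82.8 FPKM in the S100A4-negative libraries in that order. Erythroid precursor markers had 56.3, 254 and 199 FPKM in the S100A4-positive and 57.2, 76.6 and 289 FPKM in the S100A4-negative libraries, highest in replicate 2 of the S100A4-positive and replicate 3 of the S100A4-negative group. Plasma cell markers were lowest in replicate 3 of each group, with 653, 363 and 359.9 FPKM in the S100A4-positive and 2635, 2793 and 1332 FPKM in the S100A4-negative libraries in that order. Summed neutrophil and precursor markers were also lowest there, with 416 FPKM in S100A4-positive and 3321 FPKM in S100A4-negative replicate 3. By mean log2(FPKM + 1) that list was highest in S100A4-negative replicate 3, at 6.01 units. Summed T cell markers were highest in S100A4-positive replicate 3 (429 FPKM) and lowest in S100A4-negative replicate 3 (1920 FPKM). The part of any of these cell types in the replication and mitosis levels was not tested.

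**Figure D4:**
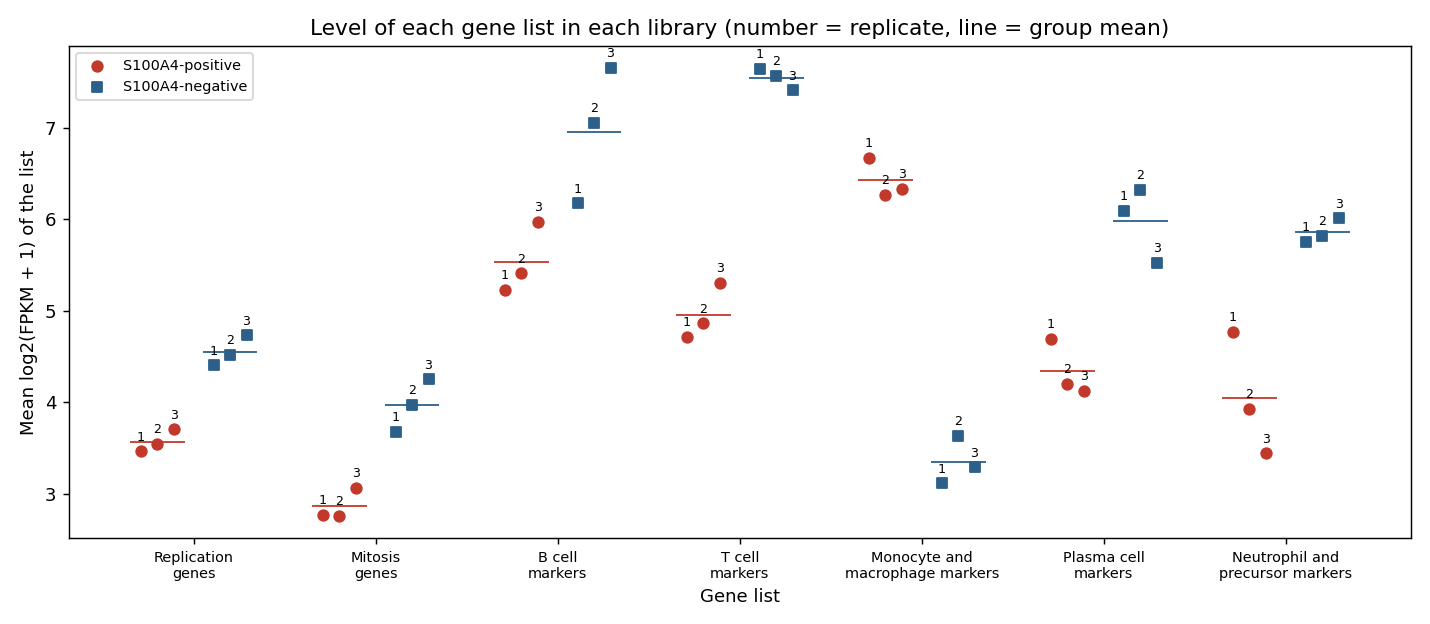
Mean log2(FPKM + 1) of the replication genes, the mitosis genes and 5 marker lists in each library, numbered by replicate, with lines at the group means. Replication genes lie between 3.46 and 3.70 in S100A4-positive and 4.40 and 4.73 in S100A4-negative libraries, and replicate 3 is the highest of each group for replication genes, mitosis genes and B cell markers.

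Other genes of both programmes were lower too, where 43.4% of all tested genes fell and 19.0% rose. Of 34 further replication genes 32 were tested (Pold4 was listed at 0 and Fen1 was under the filter), and 27 fell and 0 rose; their median log2 difference was -0.95. Clspn and Timeless, which protect stalled forks, fell by 1.88 and 1.51 log2 units. Dut, which keeps uracil out of DNA, had 8.49 ± 3.11 FPKM in S100A4-positive libraries and 31.9 ± 7.35 FPKM in S100A4-negative libraries and fell by 1.82 log2 units, and Rpa2, of the complex that coats single strands, fell by 1.53 log2 units. Of 51 further mitosis genes 50 were tested, and 42 fell and 0 rose; their median log2 difference was -1.03. The condensin genes Smc4 and Ncapd2, which compact chromosomes, fell by 1.89 and 1.67 log2 units. Smc4 had 41.97, 41.3 and 50.5 FPKM in S100A4-positive libraries, against 225, 122 and 169 FPKM in S100A4-negative libraries. Racgap1, of the division midzone, and Kif22, a chromosome motor, fell by 1.69 and 1.58 log2 units. After median-of-ratios rescaling 23 of the further replication genes fell and 0 rose, and 40 of the further mitosis genes fell and 2 rose, against 24.3% lower and 27.7% higher of all tested genes.

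Upstream of replication, the cyclin D genes Ccnd1 and Ccnd2 moved in opposite directions. Of 12 tested G1 cyclins, kinases and activators 9 fell and 2 rose (median log2 difference -0.81), against 43.4% lower and 19.0% higher of all tested genes. After median-of-ratios rescaling 6 fell and 3 rose, against 24.3% lower and 27.7% higher of all tested genes, so the share that rose was near that of all genes. Ccnd1 had 6.33, 13.9 and 18.9 FPKM in S100A4-positive libraries, against 1.06, 1.81 and 3.25 FPKM in S100A4-negative libraries, a log2 difference of 2.15 (SE 0.41, limma adjusted p = 0.00318). Ccnd2, the cyclin D gene with the highest S100A4-negative level, had 35.1, 52.9 and 48.1 FPKM in S100A4-positive libraries, against 115, 118 and 118 FPKM in S100A4-negative libraries, a log2 difference of -1.37 (SE 0.16, limma adjusted p = 4.11e-04). Neither gene overlapped between the groups. The other gene that rose was Cdk6, a partner kinase of the D cyclins, chosen here after its value was seen; its rise of 0.42 log2 units was lost in 5 of the 6 fits without a library (limma adjusted p from 0.0655 to 0.109), and it held without S100A4-positive replicate 3. Myc, which drives growth and cell cycle entry, had 31.5, 26.8 and 30.2 FPKM in S100A4-positive libraries, against 72.9, 75.4 and 101 FPKM in S100A4-negative libraries, and fell by 1.45 log2 units. Mybl2, which encodes B-Myb, fell by 1.36 log2 units.

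Inhibitors and quiescence genes had a smaller median fall than the replication genes, and 1 of them rose. Of 24 tested members 16 fell and 1 rose (median log2 difference -0.62), against 43.4% lower and 19.0% higher of all tested genes. After median-of-ratios rescaling 7 fell and 2 rose, against 24.3% lower and 27.7% higher of all tested genes, so the share that fell was near that of all genes. The gene that rose was Cdkn1a, which encodes p21, an inhibitor of cyclin-dependent kinases that also binds PCNA. It had 129, 235 and 230.5 FPKM in S100A4-positive libraries, against 12.4, 20.9 and 15.4 FPKM in S100A4-negative libraries, a log2 difference of 3.51 (SE 0.27, limma adjusted p = 8.39e-05). All 3 S100A4-positive libraries lay above all S100A4-negative ones. Foxo1 and Klf2, transcription factors of resting T cells, fell by 1.68 and 1.08 log2 units. Foxo1 averaged 9.75 ± 0.499 FPKM in S100A4-positive libraries and 33.4 ± 1.38 FPKM in S100A4-negative libraries, and Klf2 119 ± 18.9 FPKM in S100A4-positive libraries and 255 ± 64.98 FPKM in S100A4-negative libraries. E2f7, a repressor that is itself an E2F target, fell by 1.10 log2 units. Beside these values, the median log2 difference was 3.41 for monocyte and macrophage markers and -2.58 for T cell markers, and the part of either cell type was not tested.

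**Figure D5:**
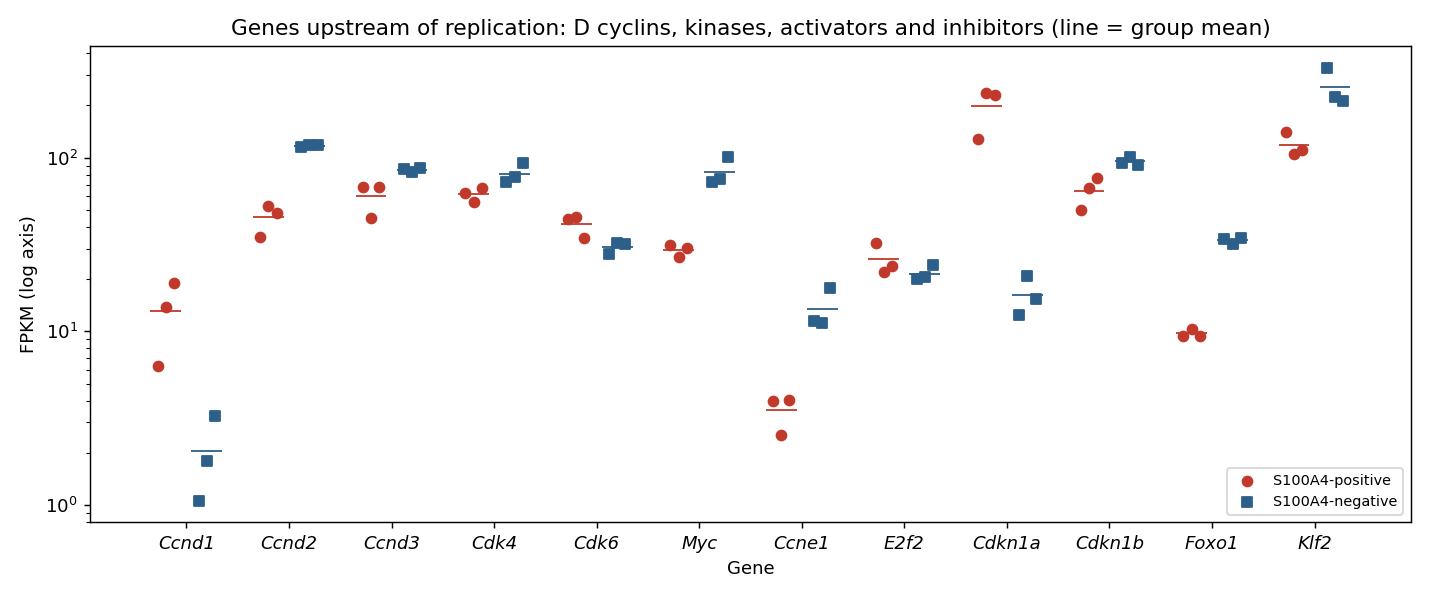
FPKM of cyclin D genes, kinases, activators and inhibitors in each library on a log axis, with circles for S100A4-positive and squares for S100A4-negative libraries and lines at the group means. Ccnd1 and Cdkn1a lie higher in all S100A4-positive libraries, and Ccnd2, Myc, Ccne1 and Foxo1 lower.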

How the data were processed

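RNA-seq of sorted splenic cells gave 3 S100A4-positive and 3 S100A4-negative libraries from poly(A) RNA. Reads were aligned with HISAT2 2.1.0 to mm10 and quantified with Cufflinks and Cuffnorm, per the submitters' processing notes. The authors deposited FPKM per gene and library, and a table of their own comparison with a mean normalized read count (signal) per group, a log2 fold change, a p-value and an adjusted p-value, per the file headers; the test and the counting of strand are not given in the sources used here. Whole reads were recovered from the FPKM and the deposited means, with 135018 of 135018 values above 0 within 0.02 of a whole read, and they give the depth and an alternative. Columns of other samples numbered 0.

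FPKM is not a count, so the main test was made on the log scale. limma 3.58.1 (R 4.3.3, statmod 1.5.0) with an intensity trend was fitted to log2(FPKM + 1) of the 13241 genes whose FPKM averaged 1 or more (42710 were left out), without covariates, with Benjamini-Hochberg adjustment over all of them and a threshold of 0.05; 8869 genes had an unadjusted p under 0.05. Intervals are 95% intervals of limma. The members and gene lists were chosen with earlier results of these data known. Values in every library are given for the 3 genes with the highest mean and the gene with the largest change in each of the 8 roles, and up to 4 called genes with the largest changes are named from each further list; other members are given by their means or differences. Alternatives were a pseudocount of 0.1, no filter, a filter of 5, median-of-ratios and quantile scaling, array weights, a replicate block, leaving out each library, and voom on the recovered reads. Coordinates are those of GENCODE on GRCm38 (mm10), and promoter windows are RefSeq's.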

Additional observations from a re-analysis of the deposited data

How the results depend on the processing

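Of all tested genes, 5741 fell in the deposited scaling, 3217 under median-of-ratios scaling and 3156 with voom and the authors' size factors. Replication genes called higher numbered 0 as deposited and 1 (E2f2) under median-of-ratios, quantile and voom size-factor scaling. The median log2 difference of replication genes was -0.76 under median-of-ratios, -0.88 under quantile and -0.85 under voom size-factor scaling. That of mitosis genes was -0.89, -0.94 and -1.04 in the same order. Signs turned for genes that had not passed. Pcna was at 0.25 under median-of-ratios and 0.26 under voom size-factor scaling, Chaf1b at 0.10, 0.020 and 0.11 under median-of-ratios, quantile and voom size-factor scaling, and Bub1b at 0.087 and 0.096 under median-of-ratios and voom size-factor scaling. Without 1 library at a time, Pcna ran from -0.27 to 0.045, Tk1 from -0.041 to 0.31 and Mki67 from -0.14 to 0.21. The count of all genes called ran from 4537 to 5699 lower and 2183 to 2473 higher, replication genes from 23 to 24 lower, mitosis genes from 20 to 23 lower, and the medians from -1.19 to -1.05 and from -1.29 to -1.01. With a filter of 5, under which 27 replication and 20 mitosis genes were still tested, 21 and 18 fell. The cause of the other shifts was not tested.

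Of 1071 values of single genes under the alternatives, 1014 kept their direction and their side of the threshold, 39 lost their call, 5 gained one and 13 turned sign. The genes were the 55 members, the genes named from the further lists, and Cdk6. Those from the further lists were picked for large changes, which can raise the share that stayed the same. Same-numbered libraries deviated together with correlations of 0.38, 0.083 and 0.37, and differently numbered ones with -0.38 to 0.15. S100A4-positive replicates 1 and 3 correlated best with their own number, and replicate 2 with S100A4-negative replicate 3 (0.15). These values do not settle whether the numbers pair the libraries, and the main fit was made without a block. With a replicate block 25 replication and 22 mitosis genes fell, against 25 and 22 without it. Of all genes 6188 fell and 2669 rose with the block, against 5741 and 2512 without it. Depth sets the counting error of each gene; the fewest recovered reads of any of the 55 in a library were 27, for Gins1.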
